A study of Mus musculus with 13 samples.

Results

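A set of 9 interferon-stimulated genes was followed through the maturation of mouse thymocytes. They were the transcription factor Irf7, the antiviral effectors Ifit1, Ifit3 and Isg15, the HIN-200 family genes Ifi203, Ifi206 and Ifi213, and the Schlafen genes Slfn1 and Slfn5. The 9 genes were taken by their names from a gene list of 57010 entries shared by both kits of the study, and all 9 were found in each. They were chosen by their levels, after Ifi206, Ifi213 and Slfn1 had been seen to lead a group of mature CD4 thymocytes in these same data, so their levels in mature thymocytes are given as a description, with no test.

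The study compared split-pool barcoding, in which fixed cells are labelled over rounds of pooling and splitting, with droplet capture for single-cell RNA sequencing of the thymus. Parse WT is the name of the larger split-pool kit (whole transcriptome, not wild type), and it held the cells of 20 samples. Of these, 4 were thymic lobes of 2 female C57BL/6N mice aged 2 months, untreated, with both lobes of a mouse serving as technical replicates. Parse Mini, the smaller kit, repeated the lobes with 2 more such mice. The other 16 samples of Parse WT came from an unrelated project. The labels name thymus and spleen, and control and chronic stress, for the kit as a whole, and the design text adds young and adult mice, and the study's text calls these samples non-thymic, but no source used here gives tissue, age or treatment for each of them. They were therefore treated as 16 samples in no group. The table of cells numbers the 4 WT lobes without saying which 2 belong to 1 mouse. It names Mini lobes 1 to 4, in the order used here, 1-A, 1-B, 2-A and 2-B. The study gave mice letters and lobes of a mouse numbers in its larger experiment, and whether the Mini names follow this is not stated. The spread over lobes given below therefore mixes differences between mice and between lobes of a mouse.

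Type I interferons bind a cell surface receptor made of Ifnar1 and Ifnar2, whose kinases activate a complex of transcription factors that includes Stat2 and Irf9. The complex binds interferon-stimulated response elements, DNA motifs near the starts of the genes it switches on. In the thymus, cells with neither co-receptor (double negative, DN) become cells with both CD4 and CD8 (double positive, DP). DP cells pass through a proliferating stage (DP-P), a stage that recombines the T cell receptor alpha chain (DP-R) and a stage under selection (DP-S). Selected cells keep one co-receptor, become single positive (SP-CD4 or SP-CD8), mature in the medulla, and leave through S1pr1, a receptor whose expression Klf2 supports. Interferon signalling in the medulla is known to accompany the last of these steps.

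Irf7 is a master regulator of type I interferon production that is itself induced by interferon. Ifit1 and Ifit3 belong to a family of proteins that bind foreign RNA, and Isg15 is a ubiquitin-like modifier. The HIN-200 genes encode relatives of the DNA sensors Ifi204 and Aim2. Slfn1 and Slfn5 belong to the Schlafen family, whose first member was described as a regulator of thymocyte growth.

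The genes lie at 5 places in the GRCm38 genome. Ifi203 (chr1:173920407-173942672), Ifi206 (chr1:173468485-173491041) and Ifi213 (chr1:173566283-173599274) stand on the minus strand of chromosome 1. Slfn5 (chr11:82951349-82964840) and Slfn1 (chr11:83116849-83122670) are neighbours on the plus strand of chromosome 11, as are Ifit3 (chr19:34583531-34588731) and Ifit1 (chr19:34640871-34650009) on chromosome 19. Irf7 (chr7:141262706-141266481) and Isg15 (chr4:156199424-156200818) stand alone on minus strands. Several have close copies. Of the 50-base words in the exons of Ifit3, 51.2% occur also in Ifit3b, 25.6% of those of Ifi206 occur in other genes, among them Ifi208 and Ifi213, and the shares were 15.6% for Ifi213 and 12.2% for Ifi203. Reads from such stretches cannot be assigned with certainty, and the levels of these 4 genes carry that limit. Irf7 overlaps Phrf1 and Slfn5 overlaps Slfn5os on the opposite strand, and Ifi203 overlaps Mndal on the same strand.

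The stretches before the starts are shown because 7 of the 9 genes hold the core of the interferon-stimulated response element there. The motif searched was GAAA, any 2 bases and GAAA again, or the reverse complement (TTTC, any 2 bases and TTTC), overlapping copies included, in the 250 bases before each RefSeq start on GRCm38.p6. It was found for 936 of 27025 genes of the RefSeq promoter table (3.46%) and for 7 of the 9 genes (77.8%). The windows of Irf7 and Slfn1 did not hold these letters. In the sequences below, each printed 5′ to 3′ on the strand of its gene without the bases that are exonic in GENCODE, capitals mark the motif.

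Ifit1 (chr19:34640744-34640870, plus strand): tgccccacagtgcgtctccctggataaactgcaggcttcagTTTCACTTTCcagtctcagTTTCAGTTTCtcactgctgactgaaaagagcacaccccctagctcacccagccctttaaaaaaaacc
Ifit3 (chr19:34583359-34583528, plus strand): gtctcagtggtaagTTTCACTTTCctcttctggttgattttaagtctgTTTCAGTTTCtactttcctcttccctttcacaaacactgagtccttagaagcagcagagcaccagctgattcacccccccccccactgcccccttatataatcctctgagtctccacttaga
Isg15 (chr4:156200819-156200988, minus strand): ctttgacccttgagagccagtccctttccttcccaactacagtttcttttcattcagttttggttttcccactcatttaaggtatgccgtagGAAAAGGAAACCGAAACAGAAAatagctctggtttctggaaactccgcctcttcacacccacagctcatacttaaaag
Ifi203 (chr1:173942493-173942655, minus strand): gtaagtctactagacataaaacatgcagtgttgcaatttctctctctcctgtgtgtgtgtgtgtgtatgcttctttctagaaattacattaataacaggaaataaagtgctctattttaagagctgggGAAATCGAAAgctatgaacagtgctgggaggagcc
Ifi206 (chr1:173491319-173491488, minus strand): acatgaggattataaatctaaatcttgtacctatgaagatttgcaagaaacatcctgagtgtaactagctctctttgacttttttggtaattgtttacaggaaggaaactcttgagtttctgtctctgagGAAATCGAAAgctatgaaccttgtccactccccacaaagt
Ifi213 (chr1:173599275-173599442, minus strand): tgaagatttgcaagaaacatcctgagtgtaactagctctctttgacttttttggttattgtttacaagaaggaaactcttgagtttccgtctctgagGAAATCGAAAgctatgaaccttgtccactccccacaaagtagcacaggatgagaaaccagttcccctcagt
Slfn5 (chr11:82951932-82951984, plus strand): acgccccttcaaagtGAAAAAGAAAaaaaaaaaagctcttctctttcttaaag

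Ifit1 and Ifit3 each held 2 copies in the same order and with the same letters, TTTCACTTTC followed by TTTCAGTTTC. Isg15 held 3 overlapping copies in 1 run. Ifi203, Ifi206 and Ifi213 shared GAAATCGAAA and, around it, the 20 bases GGAAATCGAAAGCTATGAAC, which stood in the windows of 5 genes in all, the other two being Ifi208 and Mndal of the same family. For Ifi203 this held at 1 of its 2 RefSeq starts. Ifi206 and Ifi213 shared a further run of 135 bases, found also before Ifi208. The stretches printed for Ifi203 and Slfn5 lie before RefSeq starts that fall inside the GENCODE spans given above. For Slfn5, 117 of the 170 bases before that start are exonic, and its match adjoins a run of A. A match is a string of letters, and binding was not measured.

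The 4 lobes of Parse WT held 4178 to 15077 cells and 30450786 to 124106974 unique molecular identifiers (UMIs, each counting 1 captured RNA molecule), and those of Parse Mini 4498 to 5426 cells and 28057164 to 33264104 UMIs. Ribosomal RNA took 18.2% to 27.3% of UMIs in the WT lobes and 14.8% to 17.5% in the Mini lobes, and was left out of the totals. After limits on depth, mitochondrial share and doublets, 37401 of 41838 WT cells and 18309 of 20085 Mini cells were used. Cells were clustered without the 9 genes and without the interferon pathway genes among the features, and clusters were named by marker genes. The DP-R-like class, named by markers that include Rag1 and Rag2, held 14060 WT cells and 7433 Mini cells, and the mature SP-CD4-like class, named by S1pr1, Klf2, Ccr7 and Il7r, held 1313 (152 to 489 per lobe) and 720 (136 to 222). Clusters without a clear name held 5569 WT cells (14.9%) and 3377 Mini cells (18.4%). One WT cluster of 880 DP-R-like cells came from 1 lobe only. No barcode combination occurred in 2 samples of a kit, and 460 combinations (2.29% of those of Parse Mini) occurred in both kits, which were barcoded separately.

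A level is the UMIs of a gene per 1000000 UMIs outside ribosomal RNA, summed over the cells of a class in 1 lobe, and lobes are given in the order 1 to 4. The steepest pattern in Parse WT was that of Ifi213. In DP-R-like cells of the WT lobes its levels were 0.736, 4.28, 2.64 and 4.06, and in mature SP-CD4-like cells 265, 189.8, 156 and 186. In the Mini lobes they were 2.79, 1.47, 3.83 and 1.32 in DP-R-like cells and 137, 262, 188 and 174 in mature SP-CD4-like cells. The lowest mature lobe stood far above the highest DP-R lobe in both kits, and with 0.5 UMI added to each sum the ratio per lobe was 43.9 to 321 in Parse WT. The largest of these, in lobe 1, rests on 4 UMIs in its DP-R-like cells.

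Ifi206 followed the same course from a somewhat higher start. Its WT levels were 5.71, 10.8, 7.91 and 9.37 in DP-R-like cells against 199, 166, 174 and 158 in mature SP-CD4-like cells. Its Mini levels were 9.60, 8.22, 9.23 and 4.73 against 139, 179.7, 138 and 174. No lobe overlapped, and in mature cells the Mini lobes named A (139 and 138) lay below those named B (179.7 and 174). Ifi203, the third HIN-200 gene, was already present in DP-R-like cells, at 33.1, 36.2, 29.9 and 39.0 in the WT lobes and 40.3, 40.7, 44.8 and 36.3 in the Mini lobes. In mature SP-CD4-like cells it stood at 208, 170.5, 196 and 180.2 in the WT lobes and 144, 264, 179 and 204 in the Mini lobes, again without overlap but with a smaller ratio.

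The Schlafen genes differed from each other in the same way. Slfn1 was nearly absent from DP-R-like cells, at 1.47, 2.26, 3.17 and 2.19 in the WT lobes and 3.72, 0.843, 0.900 and 0.945 in the Mini lobes. In mature SP-CD4-like cells it stood at 139, 86.4, 111 and 98.4 and at 95.1, 160.2, 93.3 and 134, again lower in the Mini lobes named A. Ifi203 and Ifit1 had this order too, while Ifi213, Slfn5, Irf7, Ifit3 and Isg15 did not. The A lobes were also the shallower ones in this class, with medians of 2420.5 and 2784.5 UMIs per cell against 3275.5 and 3451. This order of A and B lobes was picked out after the values were seen. Its share over all genes was not formed, and the part of depth in it was not tested. Slfn5 started at 19.1, 26.4, 19.7 and 20.3 in the WT lobes and 24.8, 19.0, 22.7 and 18.3 in the Mini lobes. It stood at 105, 97.8, 83.9 and 87.4 and at 100.4, 121, 87.0 and 77.5 in mature SP-CD4-like cells. The lobes of both stages were apart for both genes in both kits.

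Irf7 and the Ifit genes were scarce throughout. Irf7 stood at 3.68, 4.40, 2.77 and 4.14 in DP-R-like cells of the WT lobes and at 40.5, 22.7, 36.8 and 29.9 in mature SP-CD4-like cells. In the Mini lobes the values were 2.79, 3.16, 1.35 and 2.65 against 33.5, 54.1, 22.1 and 26.4. Ifit1 rested on 33 UMIs in all WT DP-R-like cells and 84 in mature SP-CD4-like cells, where its levels were 19.5, 15.9, 18.4 and 25.0. In the Mini lobes, whose Ifit1 UMIs numbered 11 and 27, the mature levels were 3.52, 17.3, 9.49 and 19.4. Ifit3 stood at 13.5, 14.8, 23.0 and 9.78 in mature SP-CD4-like cells of the WT lobes and at 15.9, 12.99, 6.32 and 24.7 in those of the Mini lobes, with DP-R levels of 1.31 or lower in every lobe. Isg15 had the fewest UMIs of the 9 in mature SP-CD4-like cells, 32 in Parse WT and 12 in Parse Mini, with levels of 3.00, 12.5, 6.89 and 7.94 in the WT lobes and 7.05, 4.33, 1.58 and 8.81 in the Mini lobes. The lowest of these, Mini lobe 3, rests on 1 UMI and stood just above the 1.35 of its DP-R-like cells.

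**Figure D1:**
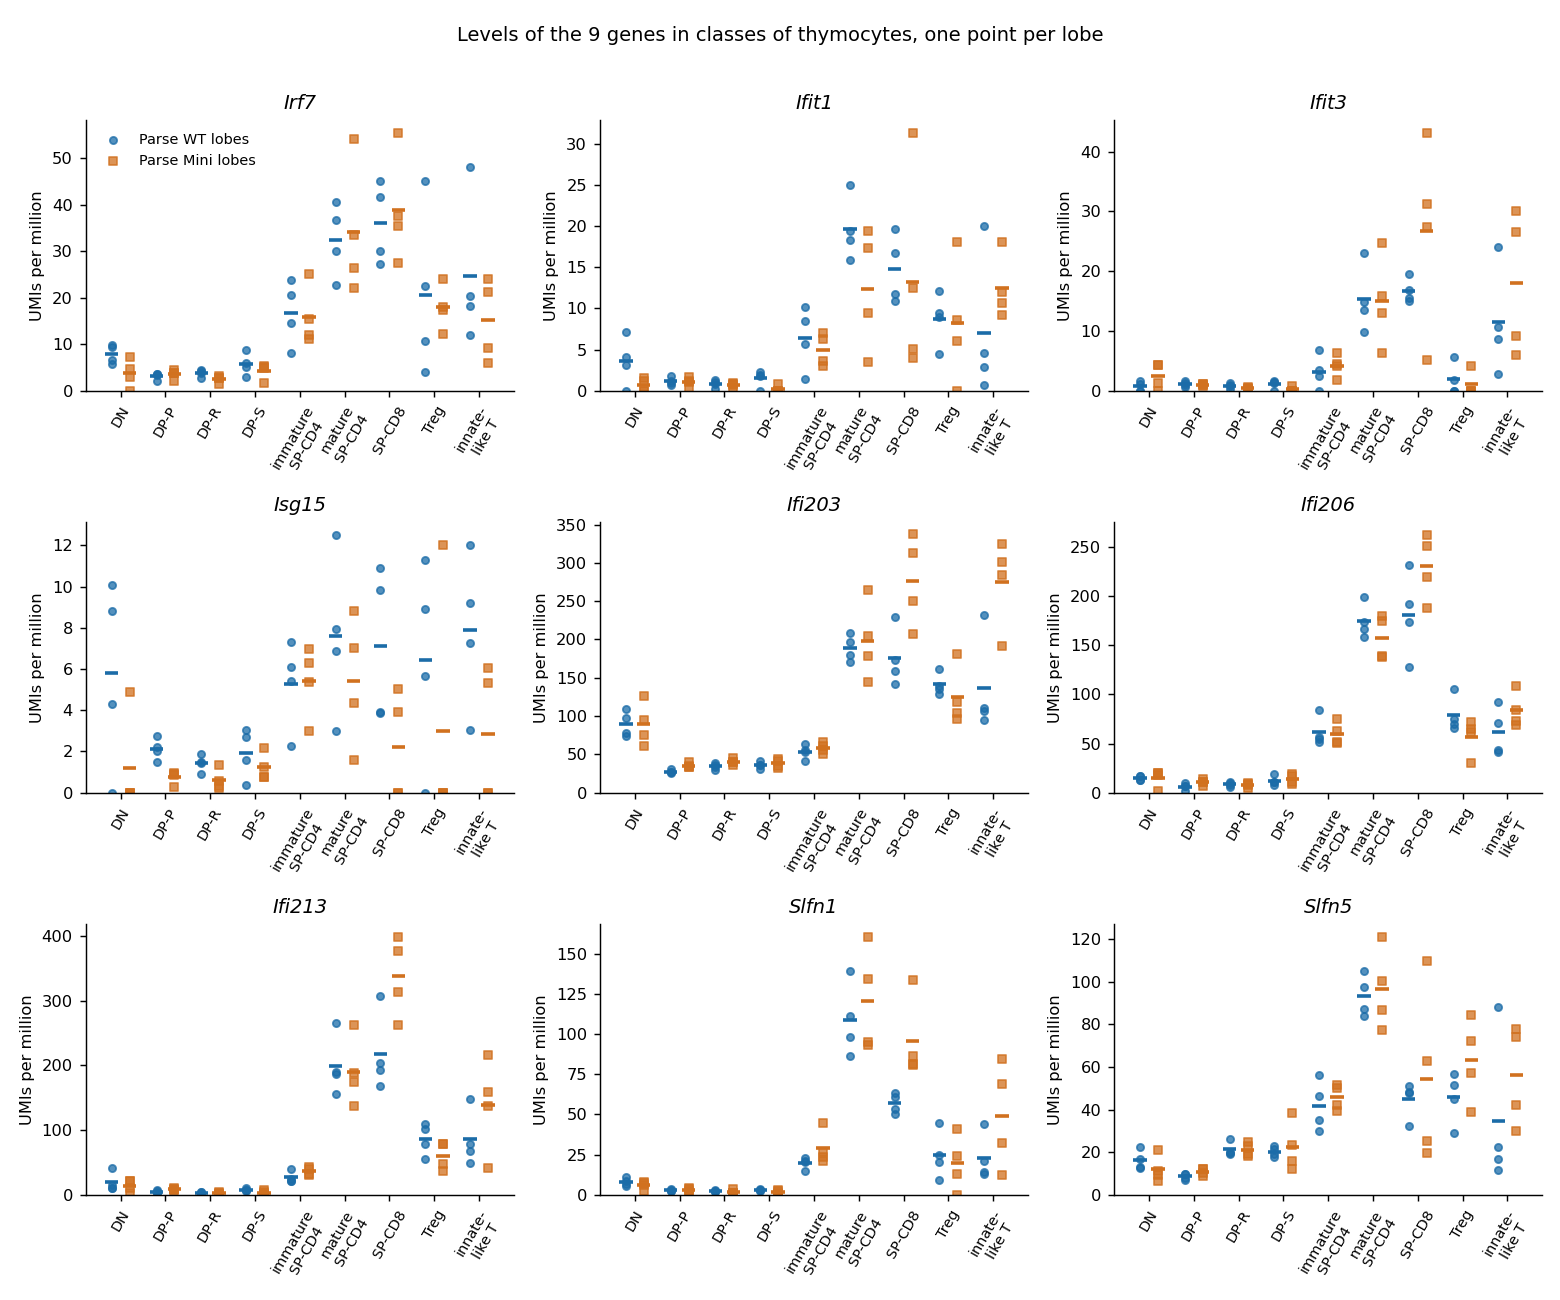
UMIs per 1000000 UMIs of each of the 9 genes (y axis, linear, its own scale in each panel) in 9 classes of thymocytes (x axis); circles are Parse WT lobes, squares are Parse Mini lobes and bars are means over 4 lobes. Ifi213 stood at 156 to 265 in mature SP-CD4-like cells of the WT lobes and at 4.28 or lower in DP-R-like cells, and Isg15 at 3.00 to 12.5 in mature SP-CD4-like cells of the WT lobes.

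All 9 genes were at least 2-fold higher in mature SP-CD4-like than in DP-R-like cells in every WT lobe, a bar that 5.2% of 12375 genes with at least 50 UMIs passed. In Parse Mini 8 of the 9 passed it, against 4.82% of 10821 genes, and Isg15 did not, its log2 ratios in lobes running from 0.70 to 4.10. Of those 8, Ifit1 (38 UMIs over both classes) and Ifit3 (40) lay under the 50-UMI minimum, as did Isg15 (23). None of the 9 was 2-fold lower in every lobe of either kit, where 1.77% and 1.34% of all genes were. Since the genes were chosen for this pattern, the counts describe it and do not test it. The median of the 9 log2 ratios was 4.34 in Parse WT and 4.04 in Parse Mini, and over all genes −0.01 and 0.01. In Parse WT it was 3.53 where clusters needed a score of 0.3 for a mature class, in place of the 1.0 set after the clusters had been seen.

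Log2 ratios of mature SP-CD4-like to DP-R-like cells, with 0.5 UMI added to each sum, ordered the genes. Ifi213 had 6.29 ± 1.37 in Parse WT and 6.37 ± 0.94 in Parse Mini (SD, n = 4 lobes each), and Slfn1 5.58 ± 0.62 and 6.40 ± 1.23. Ifit1 followed at 4.69 ± 1.04 and 4.04 ± 1.61, Ifi206 at 4.39 ± 0.52 and 4.34 ± 0.63 and Ifit3 at 4.34 ± 1.02 and 4.89 ± 1.17. Irf7 had 3.10 ± 0.60 and 3.73 ± 0.36. The smallest ratios were those of Ifi203 (2.45 ± 0.27 and 2.26 ± 0.40), Isg15 (2.34 ± 0.35 and 3.19 ± 1.67) and Slfn5 (2.14 ± 0.23 and 2.18 ± 0.34). The kits differed for each gene by less than the larger SD over lobes, except Irf7, whose means differed by slightly more. Single lobes moved some of these values by over 1.5-fold. Without lobe 1 Ifi213 had 5.61 in Parse WT, and in Parse Mini Slfn1 had 6.99 and Ifit1 4.71. Ifit1 had 3.43 without Mini lobe 2, and Isg15 had 4.02 without Mini lobe 3. With all 4 lobes, among all genes tested in Parse WT, Ifi213 had the second highest ratio and Slfn1 ranked 11 of 12375, and in Parse Mini they ranked 12 and 9 of 10821.

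Pooled over lobes, Ifi213 was 59.2-fold higher in mature SP-CD4-like cells in Parse WT (95% counting interval 48.5 to 72.8) and 82.8-fold in Parse Mini (59.8 to 118). For Slfn1 the folds were 45.6 (35.8 to 58.8) and 83.6 (55.4 to 131), and for Ifi206 they were 19.3 (16.8 to 22.1) and 20.3 (16.6 to 25.0). The Ifit genes had wide intervals, 14.2 to 33.2 around 21.5 for Ifit1 and 10.6 to 27.4 around 16.9 for Ifit3 in Parse WT. These intervals cover counting error only.

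**Figure D2:**
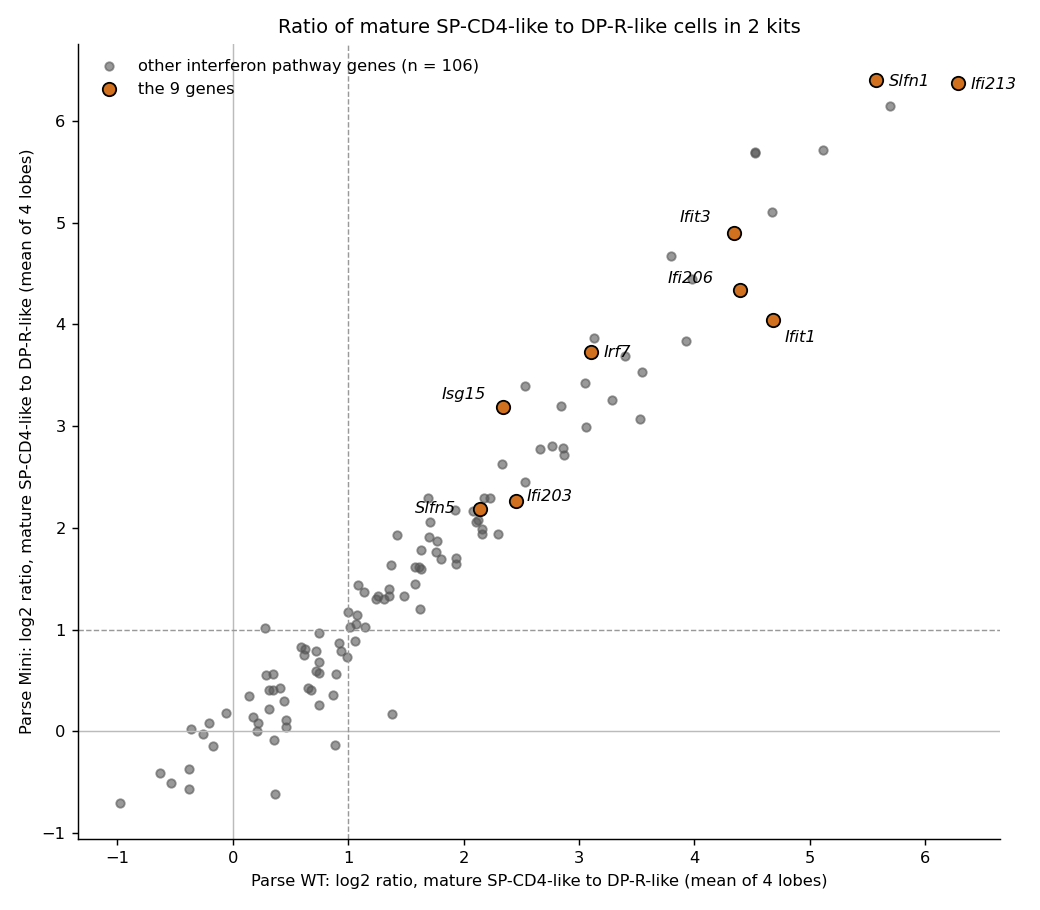
Log2 ratio of mature SP-CD4-like to DP-R-like cells, mean of 4 lobes, in Parse WT (x axis) and Parse Mini (y axis), for the 9 genes (large points) and 106 other interferon pathway genes with at least 50 UMIs in both kits (small points); dashed lines mark 2-fold. Ifi213 lies at 6.29 and 6.37 and Slfn5 at 2.14 and 2.18, and 93 of the 106 other genes lie above 0 in both kits.

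The genes were followed stage by stage. In DP-S-like cells, which are under selection, none of the 9 passed 2-fold in every lobe of either kit (1.11% and 1.05% of all genes did), and Ifi213 stood at 8.03 in Parse WT and 3.54 in Parse Mini, means over 4 lobes. In immature SP-CD4-like cells, named by Zbtb7b, Cd40lg and Ccr4, 6 of the 9 passed in Parse WT (4.85% of all genes) and 7 in Parse Mini (4.41%). The 3 that did not in Parse WT were Isg15, Ifi203 (log2 ratio 0.64) and Slfn5 (0.95), and in Parse Mini Ifi203 (0.54) and Slfn5 (1.13) did not. On the levels alone, with no UMI added, 4 passed in Parse WT and 7 in Parse Mini. Those lost were Ifit3, which had no UMI in immature cells of lobe 1, and Irf7, at 8.17 against 4.14 in lobe 4. The UMI minimum was not applied to the 9 genes in these counts.

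The HIN-200 genes and Slfn1 were compared over both steps. For Ifi206 the mean levels in DP-R-like, immature and mature SP-CD4-like cells of Parse WT were 8.45 ± 2.18, 61.8 ± 15.1 and 174 ± 17.9. For Ifi213 the immature level was 27.0 ± 8.88 and the mature level 199 ± 46.4, so most of its difference in level lay between immature and mature cells, while its log2 ratio of immature to DP-R-like cells was 3.41 ± 0.97. Slfn1 stood at 19.8 ± 3.66 and 109 ± 22.8 in those classes, and Ifi203 at 53.6 ± 9.21 and 189 ± 16.8. Parse Mini gave immature levels of 59.9 ± 11.6 for Ifi206, 36.4 ± 6.29 for Ifi213, 29.0 ± 10.7 for Slfn1 and 58.5 ± 6.44 for Ifi203. The immature and mature lobes did not overlap for any of these 4 genes in either kit.

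Between immature and mature SP-CD4-like cells, 4 of the 9 genes were 2-fold or more higher in every lobe in each kit, where 1.05% of 9211 and 0.717% of 8094 genes were. Ifi203, Ifi213 and Slfn1 were among the 4 in both kits, joined by Ifit3 in Parse WT and by Ifi206 in Parse Mini. Ifi213 had log2 ratios of 2.88 ± 0.55 and 2.34 ± 0.41, and Slfn1 2.42 ± 0.56 and 2.05 ± 0.21. Isg15 had 0.44 ± 1.09 and −0.09 ± 1.12, so its level in mature cells was not distinguishable from that in immature cells.

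The maturation genes placed these classes. S1pr1, the exit receptor, stood at 3.24 in DP-R-like, 14.4 in immature and 193 in mature SP-CD4-like cells of Parse WT, and Klf2 at 3.10, 11.4 and 92.4. Itm2a, a gene of selected cells, stood at 18.3, 385 and 132. Rag1, needed for receptor recombination, stood at 1532, 369 and 454. The value for Rag1 is higher in mature than in immature cells, and the part of doublets or free RNA in it was not tested. Ccr7, which guides cells to the medulla, stood at 14.9, 217 and 411. S1pr1, Klf2, Itm2a, Ccr7 and Rag1 were used to name the classes, so these values show what the classes are.

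SP-CD8-like cells, named by Runx3, Itgae and Nkg7, carried the same genes. In them 8 of the 9 genes were at least 2-fold above DP-R-like cells in every lobe of each kit (5.51% and 6.53% of all genes), and Slfn5, with log2 ratios of 1.08 and 1.11, was the exception. The Mini value of Isg15 among these rests on 2 UMIs and on the 0.5 UMI added (pooled fold 3.71, counting interval 0.399 to 17.0). Ifi213 stood at 218 ± 61.3 in SP-CD8-like cells of Parse WT and 338 ± 61.5 in those of Parse Mini, and Ifi206 at 181 ± 42.8 and 230.0 ± 33.4.

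Compared directly with mature SP-CD4-like cells, SP-CD8-like cells had none of the 9 genes 2-fold higher or 2-fold lower in every lobe, while 0.695% of genes were higher and 0.221% lower in Parse WT, and 0.713% and 0.357% in Parse Mini. The 2 Schlafen genes were lower on average. Slfn1 had a log2 ratio of −0.91 ± 0.25 in Parse WT, where its 50.4 to 63.0 in SP-CD8-like lobes did not reach the 86.4 of the lowest mature SP-CD4-like lobe, and −0.31 ± 0.64 in Parse Mini. Slfn5 had −1.06 ± 0.35 and −1.07 ± 1.15. Ifi213 had 0.12 ± 0.07 and 0.85 ± 0.17, higher in SP-CD8-like cells in all 8 lobes.

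Over the 9 thymocyte classes, mature SP-CD4-like cells had the highest mean of 4 genes in Parse WT and SP-CD8-like cells of 4, with Isg15 highest in innate-like T cells. In Parse Mini the counts were 3 and 6. The genes were chosen for high levels in mature cells, so these counts only describe them. The matching share over all genes was not formed. For Slfn1 in Parse WT, mature SP-CD4-like cells stood above every other class with no overlapping lobe, and for Slfn5 this held but for 1 lobe of innate-like T cells (88.2, beside 83.9 in the lowest mature lobe). For Ifi206 and Ifi213 in Parse WT, mature SP-CD4-like and SP-CD8-like lobes overlapped each other and stood clear of regulatory T cells, the next class. Parse Mini did not repeat all of this. There the mature SP-CD4-like lobes overlapped SP-CD8-like lobes for Slfn1 (93.3 or higher, 133 or lower). They overlapped SP-CD8-like, Treg-like and innate-like T lobes for Slfn5. For Ifi213 (137 or higher) they overlapped innate-like T lobes (216 or lower), and for Ifi206 (138 or higher) they stood clear of these (109 or lower). For Irf7, Ifit1, Ifit3 and Isg15, neighbouring classes in the WT order overlapped at every step.

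Treg-like cells, marked by Foxp3, had intermediate levels of the HIN-200 genes and Slfn1. In Parse WT they had 79.1 of Ifi206, 86.3 of Ifi213, 24.6 of Slfn1 and 141 of Ifi203, means over 4 lobes, and in Parse Mini 57.1, 60.3, 19.5 and 125. Their Ifit3, at 1.86 and 1.02, lay below that of immature SP-CD4-like cells (3.15 and 4.20). Their Slfn5, at 45.7 and 63.1, was exceeded only in mature SP-CD4-like cells. Innate-like T cells, marked by Zbtb16, had 62.2 of Ifi206 and 86.2 of Ifi213 in Parse WT and 83.8 and 139 in Parse Mini. DN-like cells, the earliest class, had more Ifi203 than any DP class, at 89.9 ± 16.2 in Parse WT and 89.3 ± 27.9 in Parse Mini.

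Against DP-R-like cells, DN-like cells passed 2-fold in every lobe for 4 of the 9 genes in Parse WT (8.73% of all genes), namely Ifit1, Ifi203, Ifi213 and Slfn1, and for Ifi213 and Slfn1 in Parse Mini (7.96%). For Ifit1, which had no UMI in DN-like cells of WT lobe 1, and for Ifi213 in Mini lobe 2 (1 UMI, 2.18 against 1.47), this rests on the 0.5 UMI added, and 3 and 1 of the 9 passed on the levels alone. DP-P-like cells were lower in Slfn5, at 8.70 ± 1.40 in Parse WT and 10.9 ± 1.64 in Parse Mini, with log2 ratios of −1.29 ± 0.16 and −0.96 ± 0.11. It was the 1 gene of the 9 that was 2-fold lower in every WT lobe, where 1.11% of all genes were, and none was in Parse Mini (0.888%). No gene of the 9 was 2-fold higher in DP-P-like cells in every WT lobe (6.57% of all genes), and Ifi213 was in Parse Mini (log2 ratio 1.90 ± 0.76, 7.13% of all genes).

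Taken cell by cell, the share of mature cells with a transcript differed widely among the genes. Cells were thinned to 1000 UMIs, which left out 65 WT and 73 Mini mature cells and 1628 and 787 DP-R-like cells with fewer. After that, 14.5% ± 4.22 of mature SP-CD4-like cells had an Ifi213 UMI in Parse WT against 0.169% of DP-R-like cells, and 12.5% ± 2.88 against 0.143% in Parse Mini. Without thinning the WT shares were 35.4% ± 9.00 and 0.639%. Thinned shares in Parse WT were 12.5% against 0.546% for Ifi206, 15.0% against 2.39% for Ifi203, 8.11% against 0.165% for Slfn1, 7.80% against 1.53% for Slfn5 and 2.71% against 0.255% for Irf7. They were lowest in mature cells for Ifit1 (1.27% against 0.0648%), Ifit3 (0.670% against 0.0499%) and Isg15 (0.715% against 0.141%). The DP-R-like share is the value compared against, and how much of it came from free RNA was not tested.

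At least 3 of the 9 genes were detected together in 23.5% of mature SP-CD4-like cells of Parse WT and 25.1% of Parse Mini, unthinned, and in 0.413% and 0.215% of DP-R-like cells. None of the 9 was detected in 22.2% and 28.5% of mature cells and in 85.8% and 86.3% of DP-R-like cells. Median depth was 2986 UMIs per mature and 2056 per DP-R-like cell in Parse WT, and 2852.5 and 2103 in Parse Mini. Ifit1, Ifit3 and Isg15 together gave at least 1 UMI in 131 of 1313 WT mature cells (9.98%). No mature cell of either kit had 5 or more UMIs of these 3 genes, which allows a share of up to 0.228% of cells in Parse WT and 0.417% in Parse Mini.

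The mature SP-CD4-like class joined 3 clusters in Parse WT and 2 in Parse Mini, and the genes varied among them. In Parse WT a cluster of 751 cells with a median of 2255 UMIs had 245 of Ifi213, 233 of Ifi206, 153 of Slfn1, 121 of Slfn5 and 41.0 of Irf7. A cluster of 374 cells with 5059 UMIs had 143, 112, 68.4, 70.7 and 21.7. The third, of 188 cells and 3128 UMIs, had 189.9, 153, 70.1, 64.5 and 33.2. In Parse Mini the cluster of 339 cells (2349 UMIs) had 284 of Ifi213 and 189 of Slfn1, and that of 381 cells (3580 UMIs) 130.3 and 76.2. In each kit the shallowest of these clusters had the highest levels of the genes given here. The part of depth, or of doublets among deep cells, in this was not tested.

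Markers of other cells were summed in the same classes. Between DP-R-like and mature SP-CD4-like cells of Parse WT, all 7 markers of B cells were detected and their sum ran from 165 to 236 in DP-R-like and from 130.4 to 202 in mature lobes. The sums for macrophages (3.03 or lower against 5.75 or lower, with Cd5l and Hmox1 at 0 in the mature cells) and conventional dendritic cells (19.0 to 23.6 against 17.2 to 22.7, with Xcr1 at 0) were low and overlapped. Those of monocytes (437 to 574 against 168 to 213) and plasmacytoid dendritic cells (841 to 987 against 469 to 632) were lower in mature cells, and Parse Mini gave the same order for both. They were led by single genes, F13a1 with 97.4% of the monocyte list's UMIs in DP-R-like and 93.4% in mature cells and Ccr9, which thymocytes also express, with 76.1% and 52.3% of those of the plasmacytoid list. Sums that were higher in mature cells were those of the Treg list (276 to 299 against 444 to 593), the innate-like T list (55.8 to 64.6 against 105 to 144) and the stroma list (387 to 454 against 685 to 808), and in Parse Mini too these did not overlap. In SP-CD8-like cells the Treg list, led by Ikzf2, gave still higher sums, 957 to 1119 in Parse WT and 1190 to 1330 in Parse Mini. The innate-like T list, led there by Il2rb, gave 173 to 231 and 199 to 332. Pecam1 gave 99.7% of the UMIs of the stroma list in the mature WT cells, and Col1a2 and Pdgfra were at 0. The part of these cells in the levels of the 9 genes was not tested.

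The other genes of the interferon pathway were taken from a list of 159 genes, of which 158 were in the gene lists. Of 115 with at least 50 UMIs in Parse WT, 55 were 2-fold or more higher in mature SP-CD4-like than in DP-R-like cells in every lobe and none was 2-fold lower (47.8% higher, beside 5.2% of all genes). In Parse Mini 49 of 106 were higher and none lower (46.2%, beside 4.82%), and 46 genes passed in both kits. With each cell thinned to 1000 UMIs, 25 of the list and 339 of all genes passed in Parse Mini, in place of 49 and 522. Thinning also leaves fewer genes with 50 UMIs, so these counts are not shares of the same genes. The median log2 ratio was 1.31 in each kit. The list was chosen with earlier results of these data known.

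Of the ligands, no gene of 14 reached 50 UMIs. Ifng, the type II interferon, had 12 UMIs in innate-like T cells of Parse WT and 5 in those of Parse Mini, and 3 or fewer in any other thymocyte class. Each type I interferon gene had at most 2 UMIs in any thymocyte class. For the type I genes, differences between thymocyte classes were not detectable at this depth.

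Of 8 receptor and kinase genes measured, Ifngr2 alone was called in each kit, with log2 ratios of 1.62 and 1.61. Ifnar1 (0.72 and 0.59) and Ifnar2 (0.41 and 0.43), the type I receptor chains, differed little, and Ifngr1 had −0.63 and −0.41. Among the transcription factors, Irf9 stood at 17.8 in DP-R-like and 67.9 in mature SP-CD4-like cells of Parse WT and at 17.9 and 81.8 in Parse Mini, while Stat2, its partner, had log2 ratios of 0.35 and 0.57. Irf1 had 1.24 and 1.30 and was called in Parse Mini only. Of the 7 inhibitors, Usp18, which removes Isg15 from proteins and blocks the receptor, was called in Parse WT (2.16) and not in Parse Mini (1.94), where no inhibitor was, and Socs1 had −0.98 and −0.70.

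Of 10 sensors measured in Parse WT, 6 were called, and the same 6 of 9 in Parse Mini: Ifih1, Rigi, Dhx58, Sting1, Zbp1 and Tlr7. Of 5 other HIN-200 genes, Ifi208, Ifi209, Ifi214 and Mndal were called in both kits. The steepest of the list, among genes called in both kits, were Oasl2 (log2 ratio 5.70 and 6.15), the GTPase Iigp1 (5.12 and 5.72), Ifi214 (4.52 and 5.70), the nucleotide hydrolase Samhd1 (4.53 and 5.69), Oas2 (4.67 and 5.11) and Ifi208 (3.80 and 4.67). In DP-R-like cells of Parse Mini, Oasl2 had 5 UMIs, Iigp1 and Ifi214 17 each, Ifi208 18 and Oas2 24. These genes reached the UMI minimum there through the mature cells. Oasl2 had 0 UMIs in lobe 1, so its Mini ratio rests in part on the 0.5 UMI added. Samhd1 reached its level early, at 15.7 in DP-R-like, 388 in immature and 355 in mature SP-CD4-like cells of Parse WT. Of 5 other Schlafen genes, Slfn8 was called in Parse WT only (1.31, and 1.30 in Parse Mini), and Slfn2 had 0.75 and 0.57.

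Over the 9 classes of Parse WT, the level of each gene on the log2 scale went with the mean of the 9. Pearson's r was 0.991 for Irf7, 0.990 for Slfn1, 0.989 for Ifi213 and 0.986 for Ifi206, and lowest for Slfn5 (0.869) and Isg15 (0.860). The points are 9 classes from the same libraries, each gene is part of the mean, and no p is given. Of 10683 genes with at least 500 UMIs, those whose pattern was most like the mean included Xaf1 (r = 0.991 in Parse WT and 0.979 in Parse Mini), Rigi (0.991 and 0.959), the class I gene H2-Q4 (0.990 and 0.974) and Trim30a (0.990 and 0.976).

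The 16 other samples of Parse WT, with 2109 to 8406 cells each, held lymphoid and myeloid cells of many kinds and 2484 DP-R-like cells (3.21% of cells used). Levels there are given as lowest, median and highest over the samples with at least 20 cells of a class, since the samples are not replicates. Irf7 was highest in plasmacytoid dendritic cells, the body's main source of type I interferon, at 71.0, 186 and 376 (9 samples). Monocytes had 14.3, 68.3 and 296, macrophages 6.21, 47.9 and 192, CD4 T cells 0, 29.1 and 65.1, and B cells 0, 5.09 and 38.1. The range of mature SP-CD4-like cells of the lobes, 22.7 to 40.5 in Parse WT, lay around the median of CD4 T cells.

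Ifit1 and Ifit3 were low or at 0 in most samples and high in a few. For Ifit3 in B cells and CD4 T cells the 5 highest were the same samples, named YD_C_1 to YD_C_5 in the table of cells, and these 5 were also the highest for Ifi206 in CD4 T cells but not, for example, for Ifi213 in B cells. Ifit1 ran over 0, 1.84 and 32.2 in CD4 T cells and 0, 4.56 and 47.4 in neutrophils. Ifit3 ran over 0, 11.3 and 56.1 in monocytes and 0, 1.84 and 23.3 in CD4 T cells. Some values of 0 come from few cells. In the 85 CD4 T cells of CVS_C_1, where Ifit3 was at 0, 1 UMI equals 9.84. The Ifit3 level in YD_C_4 was 6.05, on 9 UMIs in 894 cells. The order of samples therefore depends in part on the number of cells. Isg15 was highest in erythroid cells, at 1.43, 16.5 and 73.9, and in macrophages its median was 0 and its highest value 56.9.

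Slfn1 was high in T cells and neutrophils and low in B cells. It stood at 17.5, 112 and 218 in CD4 T cells, 26.7, 100.5 and 221 in CD8 T cells and 41.0, 106 and 237 in neutrophils (a median of 176 with 30% of cells removed as doublets), while B cells had 4.22, 6.27 and 10.5. The highest B cell sample lay below the lowest CD4 T cell, CD8 T cell and neutrophil samples. Slfn5 was highest in monocytes at 92.1, 165 and 452, with 0, 81.1 and 167 in CD4 T cells, 8.01, 25.9 and 101 in CD8 T cells and 5.59, 19.0 and 61.2 in B cells. In both the lobes and the other samples, the CD4 cells had the higher Slfn5 median or mean than the CD8 cells. Ifi203 was widespread, with medians of 319 in NK cells, 308 in plasmacytoid dendritic cells, 303 in CD4 T cells, 208 in B cells and 24.3 in erythroid cells.

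**Figure D3:**
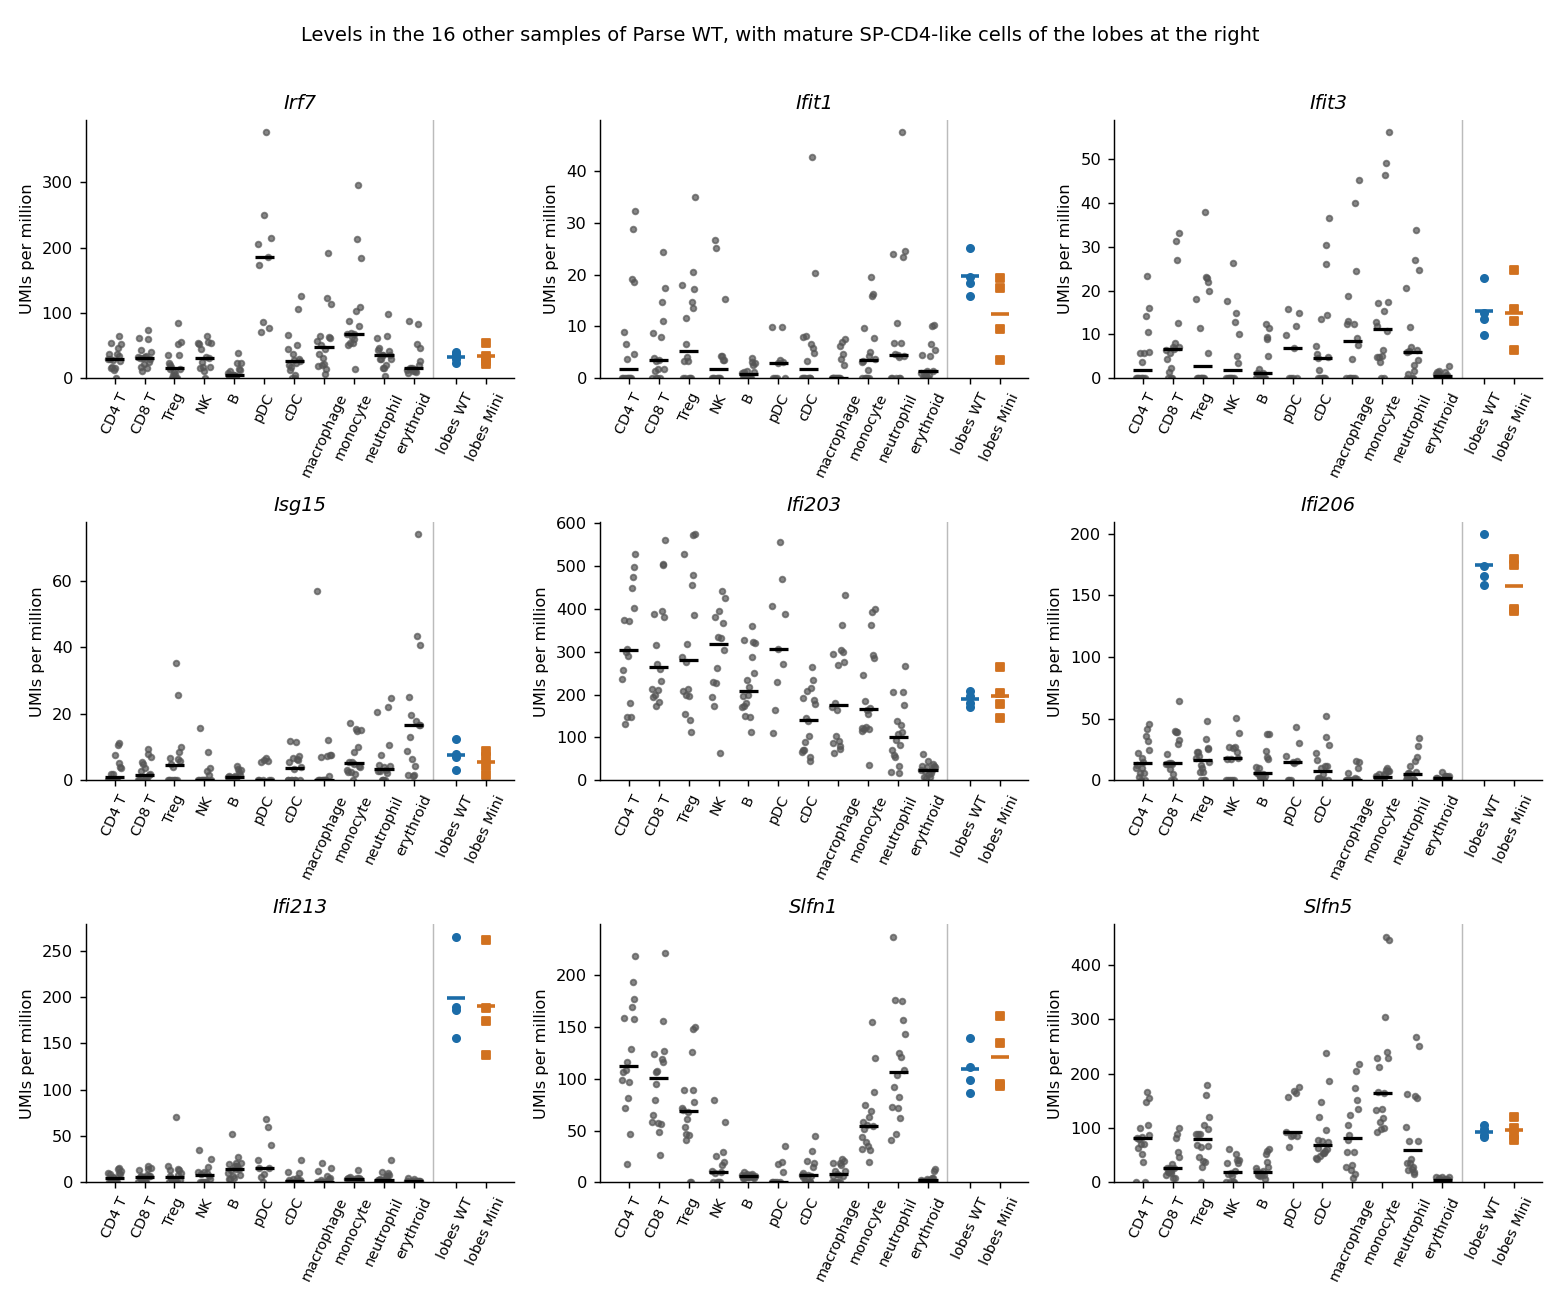
UMIs per 1000000 UMIs of each gene (y axis, linear) in 11 classes of cells of the 16 other samples (grey points, bars are medians over samples), with mature SP-CD4-like cells of the Parse WT lobes (circles) and Parse Mini lobes (squares) at the right, bars there being means. Ifi206 and Ifi213 of the lobes, at 138 or higher and 137 or higher, lie above every sample of every class shown, and the other 7 genes do not.

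Ifi206 and Ifi213 stood apart in this comparison. Ifi213 was at 156 to 265 in mature SP-CD4-like cells of the WT lobes and 137 to 262 in those of the Mini lobes, and at 0, 4.96 and 15.4 in CD4 T cells of the 16 samples. Ifi206 was at 158 to 199 and 138 to 179.7 against 0, 13.7 and 45.8. They were 2 of the 9 genes whose level in every lobe lay above that in every sample, where 5.37% of 10966 genes did for the WT lobes and 7.07% of 10732 for the Mini lobes. By the log2 ratio of summed levels, Ifi213 (4.31) ranked 74 and Ifi206 (2.62) ranked 206 for the WT lobes. Slfn1 (86.4 to 139) and Ifi203 (170.5 to 208) lay within the range of the samples. T cells not split into CD4 and CD8 were left out here, and had at most 93.8 of Ifi206 and 59.3 of Ifi213 in a sample. A cluster of 270 of these cells, described below, did reach the range of the lobes. In YD_C_1 to YD_C_5 it had 184 to 328 of Ifi206 and 88.2 to 184 of Ifi213. The samples are called non-thymic in the study's text, and their strain, age and treatment are not given per sample, so the lobes and the samples may differ in these as well as in tissue, and these cannot be told apart.

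The same 2 genes stood apart in some other classes and not in all. In SP-CD8-like cells against CD8 T cells they were again the 2 of the 9 above in every lobe of each kit (6.47% and 5.6% of all genes), with Ifi213 at 169 to 307 and 263 to 398 against 0, 6.22 and 17.5. Ifi206 was above in Treg-like cells of the WT lobes, at 66.0 to 105 against 0, 16.5 and 48.5 (4.48% of all genes), and Ifi213 in innate-like T cells, at 49.6 to 148 against 0, 19.1 and 48.9 (7.54%). In the Mini lobes none of the 9 was above every sample in either of these classes (5.09% and 6.41%). In conventional dendritic cells Ifi213 stood at 48.1 to 84.2 and 57.6 to 217 in the lobes and at 0, 1.13 and 24.3 in the samples (4.49% and 5.67%). In DP-R-like cells the lobes were not higher. Ifi213 stood at 0.736 to 4.28 in the WT lobes and 1.32 to 3.83 in the Mini lobes, and at 0, 16.7 and 41.5 in the 13 samples with enough of these cells. Those DP-R-like cells came from samples called non-thymic and had a median of 1143.5 UMIs, against 2056 in the WT lobes. Ifi206 stood there at 5.71 to 10.8 and 4.73 to 9.60 against 0, 8.02 and 92.4. In plasmacytoid dendritic cells the 1 WT lobe with enough cells had 41.9 of Ifi213, within the samples' 0, 15.95 and 68.4.

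Thymic B cells, which are no thymocytes, showed it in 1 kit. In the Mini lobes Ifi206, Ifi213 and Slfn1 lay above every sample (4.28% of all genes), Ifi213 at 191 to 397 against 4.04, 14.0 and 52.6. Slfn1 rests on few UMIs there. It stood at 16.2 or lower in the Mini lobes, against 10.5 or lower in the samples, and its lowest lobe had 1 UMI. In the WT lobes none of the 9 did (4.33%), with Ifi213 at 43.4 to 171. The WT class joined a cluster of 517 cells with 31.7 of Ifi213 and a median of 1282 UMIs to one of 131 cells with 233 and 4816 UMIs. The B cells of the Mini lobes formed 1 cluster of 111 cells, with 278.

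Neighbouring HIN-200 genes lay lower in the lobes or overlapped the samples. In mature SP-CD4-like cells of the WT lobes Ifi208 was at 15.9 to 28.5 against 14.9, 62.2 and 135 in CD4 T cells, Mndal at 290.2 to 365 against 354, 562 and 971, and Ifi209 at 109 to 183 against 29.1, 76.0 and 176. Ifi204 (0 to 1.14 against 0, 22.4 and 37.3), Ifi211 (0 to 1.14 against 0, 9.07 and 24.8) and the pseudogene Ifi203-ps (0 in every lobe against 0, 23.2 and 41.0) were nearly absent from the lobes. These neighbours were chosen after their values were seen. Ifi206 shares 11.1% of its 50-base words with Ifi208, and Ifi213 shares 13.6%. Whether reads were divided among the copies in different ways in the 2 sets of mice was not tested.

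**Figure D4:**
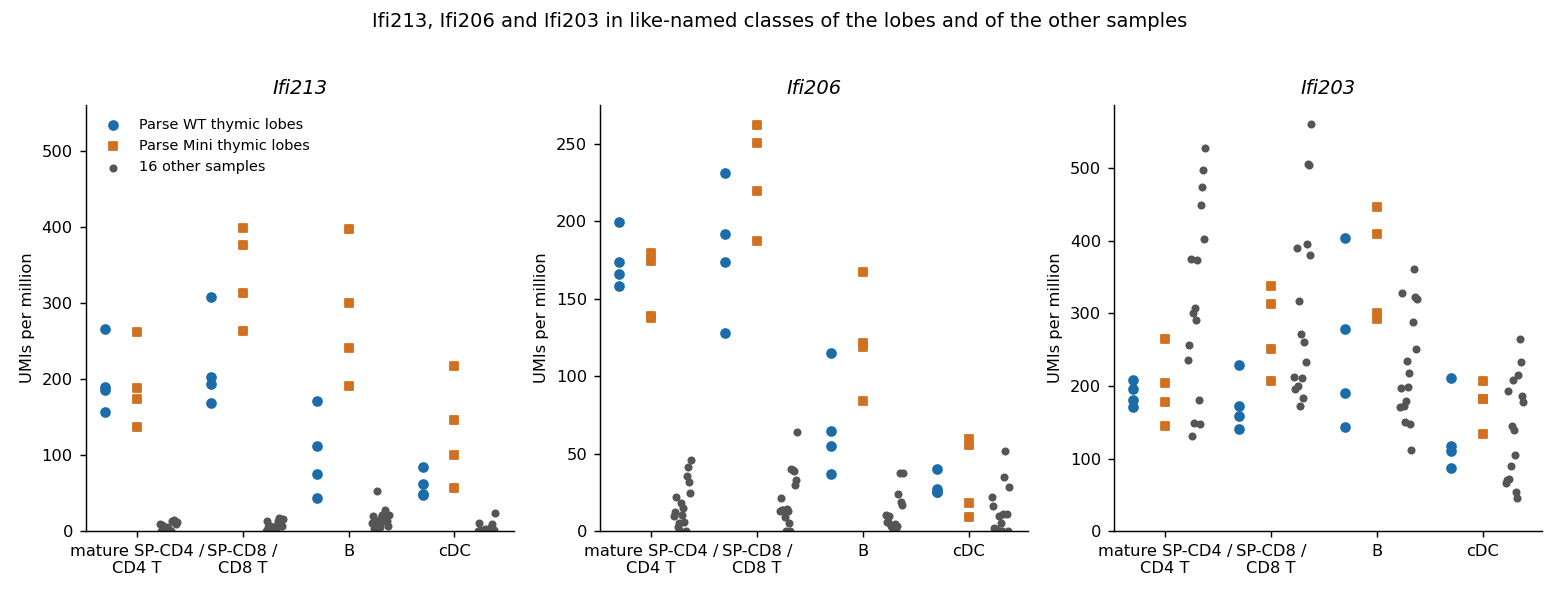
UMIs per 1000000 UMIs (y axes, linear) of Ifi213, Ifi206 and Ifi203 in like-named classes of the Parse WT lobes (circles), the Parse Mini lobes (squares) and the 16 other samples (small points). For Ifi213 the mature SP-CD4-like lobes, at 137 or higher, lie above all CD4 T cell samples, at 15.4 or lower, while for Ifi203 the lobes lie within the samples' range of 132 to 528.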

How the data were processed

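Split-pool single-cell RNA sequencing was analysed for 8 thymic lobes (4 in Parse WT and 4 in Parse Mini) and 16 other samples of Parse WT. The authors deposited, for each kit, 1 matrix of counts of UMIs per gene and cell, with tables of cells and genes, and these raw counts were used as deposited. Reads had been mapped by the authors to mm10 with the kit maker’s split-pipe tool, with a version not given in the sources used here. Groups came from the labels and the names in the table of cells. Other deposited assays were not used here.

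The limits per cell were 500 to 25000 UMIs and a mitochondrial share of 15% or less, and the 5% of each sample with the highest score from simulated doublets were removed. The study's own method called a larger share of both Parse libraries doublets, and removing 30% was an alternative here. In the WT lobes the median score was 0.33 to 0.40 in mature SP-CD4-like and 0.17 to 0.20 in DP-R-like cells. Counts were turned into Pearson residuals, which are deviations from the count that the depth of a cell predicts. These were reduced to 30 principal components of 2000 variable genes, without the 9 genes and the interferon pathway list. Before this, the mean of each well of the first barcoding round was subtracted, for the other samples only where T cells were clustered again. Cells were grouped with Leiden clustering (leidenalg 0.10.2, resolution 1.5, 20 neighbours) under Python 3.11.15, numpy 2.4.6, scipy 1.17.1 and scikit-learn 1.9.0. Single-positive and other mature T cell clusters were then pooled and clustered again in the same way. A cluster was named from marker lists where at least 3 markers were raised (1.25-fold, 10 UMIs). Mature T cell classes needed a mean marker score of 1.0 and other classes 0.3. The score of 1.0 was set after the clusters had been seen, and it kept out 576 Parse WT cells (1.54%) that a score of 0.3 would have named immature SP-CD4-like and 828 (2.21%) that it would have named mature SP-CD4-like, and no cells of Parse Mini.

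UMIs were summed per class and sample, without 3 ribosomal RNA genes, and given per 1000000 UMIs for classes of at least 20 cells. Ratios were formed within each lobe with 0.5 UMI added to each sum. Counting intervals are exact at 95% and cover counting error only. No test between classes or samples was run, since the genes were chosen for the pattern described. The 9 genes, the pathway list and the markers were chosen with earlier results of these data known. Named beside the 9 were fixed signalling genes and ligands of the pathway list, its 6 steepest genes called in both kits, maturation genes and genes among the 5 with the most similar pattern (some are not reported here), and genes of close copies or neighbours were added after their values were seen. The code was tested on simulated data. Positions came from GENCODE and promoters from RefSeq on GRCm38.p6, with all 9 genes matched. Alternatives changed the limits on cells, doublets, depth per cell, denominator, summing, features, resolution, reference class, definition of the mature class, lobes and gene minimum.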

Additional observations from a re-analysis of the deposited data

Results flagged for a closer look

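Of 162 groups of 4 lobes (a gene in a thymocyte class of a kit), 15 had a lobe whose gap to the nearest other lobe took more of the group's range than Dixon's 95% critical value allows. Chance flags about 1 in 20 such groups, and in 5 of the 15 the gene had UMIs in 1 lobe only, which always passes, so no excess is read from the count. In Parse WT, Slfn5 in DP-R-like cells stood at 26.38 in lobe 2, Ifi206 in immature SP-CD4-like cells at 84.12 in lobe 2 and Ifi213 in the same class at 40.15 in lobe 4, each above the other 3 lobes. In innate-like T cells lobe 1 was high for Ifi203 (232.5) and Slfn5 (88.19). In Parse Mini, Slfn1 was high in DP-R-like cells of lobe 1 (3.717) and in SP-CD8-like cells of lobe 3 (133.4), and Isg15 in DN-like cells of lobe 4 (4.882) and Treg-like cells of lobe 2 (12.03). Ifit3 was high in Treg-like cells of lobe 3 (4.09) and in DP-S-like cells of lobe 1 (0.7264), and Ifit1 in DP-S-like cells of lobe 3 (0.7544). Low lobes were those of Ifi206 in DN-like cells of lobe 2 (2.178), Isg15 in DP-P-like cells of lobe 4 (0.2579) and Irf7 in DP-S-like cells of lobe 2 (1.523). Several of the Parse Mini values rest on 1 to 4 UMIs. Ifi206 had a log2 ratio of DP-P-like to DP-R-like cells of −0.6752 in Parse WT, below 0 in every lobe, and of 0.4351 in Parse Mini, above 0 in every lobe. That difference between the kits was not tested.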

How the results depend on the processing

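No paired analysis was possible because no result comes from a test between groups, and the ratios were already formed within each lobe. Alternatives were run on mature SP-CD4-like against DP-R-like cells, on the class with the highest level and on levels in the other samples. Other comparisons were not rerun, apart from calls with no UMI added. For mature SP-CD4-like against DP-R-like cells no direction reversed, and the number of the 9 genes called stayed at 8 or 9 in both kits. With no UMI added to the sums it was 9 and 8. That alternative was added after the data were seen, as were all those of the pathway list. In Parse WT the median of the 9 log2 ratios (4.34) was 3.53 with a score of 0.3 for mature T classes, an alternative added after the data were seen, and 3.89 to 4.54 without 1 lobe. The number of all genes called (644) was 377 with DP-S-like cells as the reference and 8238 without the UMI minimum. In Parse Mini the median (4.04) was 4.50 with 30% of cells removed as doublets, 4.47 with interferon genes among the features, 4.54 as a mean over cells, 3.54 with DP-S-like cells as the reference, and 3.61 (without lobe 2) to 4.50 (without lobe 1). The number of all genes called (522) was 339 with cells thinned to 1000 UMIs, 294 with DP-S-like cells as the reference and 5709 without the minimum, and that of the pathway list (49) was 25 after thinning. In the other samples 3 of the 9 genes had their highest median in a myeloid class, with plasmacytoid dendritic cells counted as myeloid. With no limits on cells, after thinning or as a mean over cells, 5 did. With 30% removed as doublets, Ifi203 in neutrophils moved from 101 to 18.1 and Slfn1 from 106 to 176. The causes were not tested. Without the 270 T cells described below, an alternative also added after the data were seen, Irf7 in the pooled T cells went from 44.0 to 36.7, Ifi213 from 13.4 to 10.2 and Slfn5 from 99.2 to 77.0. Depth limits Ifit1, Ifit3 and Isg15 most, since their levels in single lobes of Parse Mini rest on few UMIs.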

Other observations

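In the 16 other samples, 270 cells among the T cells that could not be split into CD4 and CD8 formed a cluster with far higher levels of the 9 genes than other T cells, and it was singled out after its values were seen. It had 377 of Irf7, 235 of Ifit1, 220 of Ifit3, 86.1 of Isg15, 1521 of Ifi203, 263 of Ifi206, 157 of Ifi213, 513 of Slfn1 and 1122 of Slfn5, in UMIs per 1000000. Mx1, an antiviral GTPase, stood at 799.8 in it against 23.7 in the other T cells and Usp18 at 879 against 63.4, while the lineage genes stood at 203 against 209.7 for Cd4, 204 against 158 for Cd8a and 1668 against 1521 for Lef1. By sample, 57 of the cells came from YD_C_1, 89 from YD_C_2 (33.0%), 47 from YD_C_3, 20 from YD_C_4, 38 from YD_C_5, 12 from CVS_C_5, 4 from CVS_C_3, 2 from CVS_S_4 and 1 from CVS_C_2. Their number was 0 in the other 7 samples.

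In the same samples neutrophils and erythroid cells were uneven. A cluster of 739 neutrophils had 107 of Irf7, 50.4 of Ifit1, 413 of Slfn1 and 325 of Slfn5, and one of 1657 neutrophils had 23.2 of Irf7, 68.3 of Slfn1 and 31.6 of Slfn5. A cluster of 186 erythroid cells had 125 of Irf7, 70.3 of Ifit1 and 109 of Isg15. These clusters were also singled out after their values were seen.

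The same 5 of the 16 other samples held the highest values of some genes in some classes, and not of others, since Ifi213 in B cells was highest in CVS_S_1 (52.6). Ifit3 in B cells stood at 12.4 in YD_C_1, 9.35 in YD_C_2, 9.06 in YD_C_3, 5.02 in YD_C_4 and 11.4 in YD_C_5. It stood at 2.11 in CVS_C_4, 1.24 in CVS_C_2 and CVS_S_4, 1.03 in CVS_C_5, 1.01 in CVS_C_3, 0.791 in CVS_S_2, 0.559 in CVS_S_1 and 0.268 in CVS_S_3, and at 0 in CVS_C_1, CVS_S_5 and CVS_S_6. Ifi206 in CD4 T cells stood at 35.8, 41.9, 31.7, 24.9 and 45.8 in YD_C_1 to YD_C_5. It stood at 9.84, 12.5, 22.04, 2.99 and 5.73 in CVS_C_1 to CVS_C_5 and at 0, 18.4, 10.3, 14.9, 5.82 and 0 in CVS_S_1 to CVS_S_6. The 0 values of CVS_S_1 and CVS_S_6 come from 75 and 50 CD4 T cells, where 2 UMIs equal 17.5 and 36.8. The B cells of CVS_S_5 numbered 91, where 2 UMIs equal 14.1. Such values of 0 do not show a low level. The labels put none of these samples in a group, and what the names stand for is not given per sample.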
